A study of Macaca mulatta with 10 samples.

Results

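Glucose enters muscle fibers and adipocytes through GLUT proteins, the facilitative hexose transporters encoded by the *SLC2A* genes. GLUT4, the product of *SLC2A4*, is the insulin-responsive transporter: it is held inside the cell in storage vesicles and is moved to the cell surface when insulin or muscle contraction signals. The Rab GTPase-activating proteins TBC1D1 and TBC1D4 (also called AS160) hold these vesicles back until kinases such as AKT and AMPK phosphorylate them. The genes described here are a transporter set with both of these gatekeepers, named as *SLC2A1*, *SLC2A3*, *SLC2A4*, *SLC2A5*, *SLC2A8*, *SLC2A12*, *TBC1D1* and *TBC1D4*. Ensembl macaque identifiers were matched to symbols, and 7 of the 8 genes were found among the 28595 genes measured. *SLC2A3*, which encodes the high-affinity transporter GLUT3, was not matched to an identifier and is not analysed here.

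RNA-Seq was made from adipose tissue and skeletal muscle of 5 male rhesus monkeys, each of which gave 1 library for either tissue, 10 in all. Monkey rhesus_950807 is the case with hyperinsulinemia, an obese, insulin-resistant animal that is heterozygous for a nonsense mutation of the kinase gene *PRKD2*, and rhesus_920401, rhesus_940129, rhesus_940313 and rhesus_950509 are the controls, whose single values are given in this order. Ages, the fat depot and the muscle sampled are not given in the labels. The hyperinsulinemic group is thus 1 animal, so that what belongs to its insulin level, to its genotype, to its obesity and to the animal itself cannot be told apart.

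The libraries held 30669915 to 43268985 mapped reads. *PRKD2* was at 0.387 RPKM in muscle of the case monkey and 1.14 to 1.79 RPKM in control muscle, and at 3.66 RPKM in its adipose tissue, within the control range of 3.27 to 6.12 RPKM (RPKM is the read count relative to transcript length and to the mapped reads). Tissue identity was clear in the defining markers, with *ACTA1*, the skeletal muscle actin, at 24384 to 34057 RPKM in muscle and at most 101 RPKM in adipose tissue, and *ADIPOQ*, the adiponectin gene, at 631 to 1491 RPKM in adipose tissue and at most 15.4 RPKM in muscle. The gene labelled *FABP4*, the adipocyte fatty acid binding protein, went against this, with 0.254 to 3.44 RPKM in adipose tissue and 27.7 to 68.7 RPKM in muscle. The adipose libraries of controls rhesus_920401 and rhesus_940313 carried the most muscle mRNA: their *ACTA1* was 0.343% and 0.270% of the level in muscle of the same animal, against 0.00182% to 0.00505% in the other adipose libraries. At that share, muscle RNA would give 0.998% and 0.653% of the *SLC2A4* RPKM in these libraries and for 2.47% and 1.29% of the *SLC2A5* RPKM.

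The genes lie on 6 chromosomes of the annotation the authors used, whose genome build is not named in the sources used here. *SLC2A4* (ENSMMUG00000022709) is on the plus strand of chromosome 16 from 7013834 to 7019699, and its longest transcript has 2699 bases. *SLC2A1* (ENSMMUG00000000373; GLUT1, the basal transporter of most cells and of the blood-brain barrier) spans 45822358 to 45855519 and *SLC2A5* (ENSMMUG00000016307; GLUT5, a transporter of fructose) 12089589 to 12123682, both on the minus strand of chromosome 1. *SLC2A8* (ENSMMUG00000012167; GLUT8, a transporter of intracellular membranes) is on the minus strand of chromosome 15 from 99172424 to 99184249, and *SLC2A12* (ENSMMUG00000022921; GLUT12) on the plus strand of chromosome 4 from 129827535 to 129867602. *TBC1D1* (ENSMMUG00000000237) is on the plus strand of chromosome 5 from 32873473 to 33122267, and *TBC1D4* (ENSMMUG00000021197) on the minus strand of chromosome 17 from 55729089 to 55938920. No other gene of the annotation overlapped any of the 7, and each symbol stood for 1 identifier. Each value is the sum over the whole gene model, so that exons, introns and UTRs are not told apart.

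Of the glucose transporter genes found, *SLC2A4* was the most abundant in both tissues of every animal. In adipose tissue it was at 34.5 RPKM in the case monkey, against 50.9, 139, 61.4 and 68.3 RPKM in the controls. In muscle it was at 82.3 RPKM in the case monkey, against 148, 147, 148 and 112 RPKM in the same controls. The case monkey was below all controls in both tissues, and the controls were far closer to each other in muscle, where the highest was 1.32 times the lowest, than in adipose tissue, where it was 2.74 times. Among all genes measured, *SLC2A4* ranked 1680 in adipose tissue of the case monkey and 410 to 1080 in that of the controls, and 485 in muscle of the case monkey and 243 to 303 in that of the controls.

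**Figure D1:**
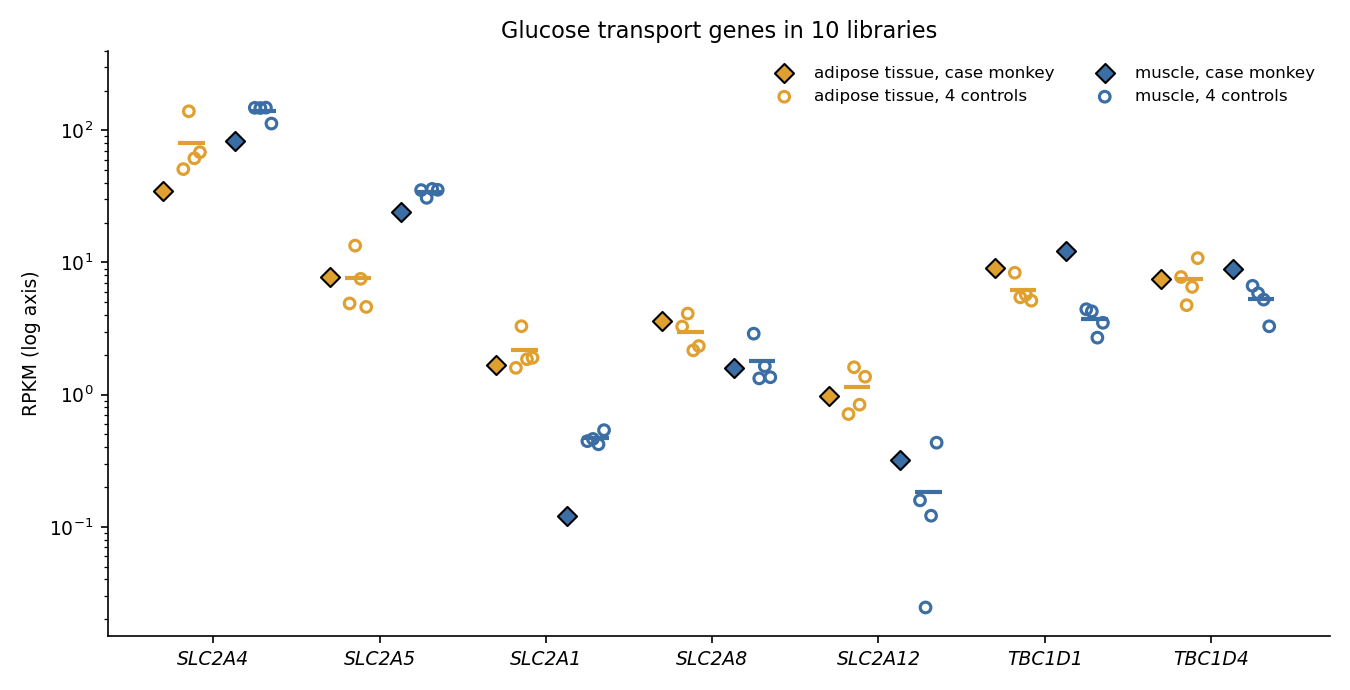
RPKM of the 7 genes (log axis) in the 10 libraries, with the case monkey as filled diamonds, the 4 controls as open circles and horizontal bars at the control means. *SLC2A4* tops both tissues, at 34.5 RPKM in adipose tissue and 82.3 RPKM in muscle of the case monkey, below all controls, and *TBC1D1* in muscle of the case monkey, at 12.3 RPKM, lies above the controls, of which the highest was at 4.43 RPKM.

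Among the 5 *SLC2A* genes described here, *SLC2A5* came second in all 10 libraries. Outside this set, *SLC2A10* was above it in adipose tissue of rhesus_950509 (4.84 against 4.61 RPKM) and below it in the other libraries. *SLC2A5* was at 7.78 RPKM in adipose tissue of the case monkey, against 4.90, 13.4, 7.53 and 4.61 RPKM in the controls. In muscle it was at 24.3 RPKM in the case monkey, against 35.3, 30.8, 36.0 and 35.5 RPKM in the controls. Every muscle library thus exceeded every adipose library in *SLC2A5*, and the muscle of the case monkey was below all 4 control muscles.

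The other transporters of this set were low. *SLC2A1* was at 1.69 RPKM in adipose tissue of the case monkey and 1.59 to 3.29 RPKM in that of the controls, and at 0.121 RPKM in muscle of the case monkey and 0.421 to 0.538 RPKM in that of the controls. The value in muscle of the case monkey rested on 12 reads (exact Poisson 95% interval 6.20 to 21.0, which covers counting error only), against 48 to 57 reads in control muscle, so the gap was larger than counting error. *SLC2A8* was at 3.58 RPKM in adipose tissue of the case monkey and 2.16 to 4.11 RPKM in that of the controls, and at 1.60 RPKM in muscle of the case monkey and 1.33 to 2.89 RPKM in that of the controls. *SLC2A12* was at 0.973 RPKM in adipose tissue of the case monkey and 0.712 to 1.61 RPKM in that of the controls, and at 0.322 RPKM in muscle of the case monkey (25 reads) and 0.0245 to 0.433 RPKM in that of the controls (2 to 36 reads). For both *SLC2A8* and *SLC2A12*, the case monkey lay within the controls in each tissue.

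The gatekeepers were of similar abundance to each other. *TBC1D1* was at 9.09 RPKM in adipose tissue of the case monkey, against 8.36, 5.45, 5.70 and 5.14 RPKM in the controls, and at 12.3 RPKM in muscle of the case monkey, against 4.43, 4.27, 2.70 and 3.50 RPKM. *TBC1D4* was at 7.56 RPKM in adipose tissue of the case monkey, against 7.76, 4.75, 6.53 and 10.8 RPKM in the controls, and at 8.99 RPKM in muscle of the case monkey, against 6.66, 5.84, 5.24 and 3.29 RPKM. The case monkey was thus the highest of the 5 animals for *TBC1D1* in both tissues and for *TBC1D4* in muscle, and stood inside the controls for *TBC1D4* in adipose tissue. In RPKM it was the only animal whose *TBC1D1* was higher in muscle than in adipose tissue, with 0.741 as the adipose over muscle ratio of RPKM against 1.28 to 2.11 in the controls. That order rests on the scaling, since after TMM, the composition-based scaling described below, *TBC1D1* was lower in adipose tissue than in muscle in all 4 controls.

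Ordered by mean RPKM, control adipose tissue ran *SLC2A4*, *SLC2A5*, *TBC1D4*, *TBC1D1*, *SLC2A8*, *SLC2A1* and *SLC2A12*, and control muscle had the same order except that *SLC2A5* stood far above the TBC1D genes. In adipose tissue the ranges of *SLC2A5*, *TBC1D4* and *TBC1D1* overlapped, as did those of *SLC2A8* and *SLC2A1* and those of *SLC2A1* and *SLC2A12*. In muscle the ranges of *TBC1D4* and *TBC1D1*, of *TBC1D1* and *SLC2A8*, and of *SLC2A1* and *SLC2A12* overlapped. Overlapping ranges do not mean a mixed order within libraries: each control had *SLC2A8* above *SLC2A1* above *SLC2A12* in adipose tissue, and *TBC1D1* above *SLC2A8* and *SLC2A1* above *SLC2A12* in muscle. The order of *SLC2A5*, *TBC1D4* and *TBC1D1* in adipose tissue and of *TBC1D4* and *TBC1D1* in muscle differed between control libraries.

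The question of which transporter dominates was put to the share of each gene in the summed RPKM of the 5 *SLC2A* genes, a measure that does not depend on how libraries are scaled. *SLC2A4* made up 71.1% of the sum in adipose tissue of the case monkey and 84.8% ± 2.05 (SD, n = 4) in that of the controls, and 75.8% in muscle of the case monkey and 78.9% ± 2.93 (SD, n = 4) in that of the controls. *SLC2A5* made up 16% in adipose tissue of the case monkey and 8.09% ± 1.77 (SD, n = 4) in that of the controls, and 22.3% in muscle of the case monkey and 19.7% ± 2.75 (SD, n = 4) in that of the controls. The shares of *SLC2A8*, *SLC2A1* and *SLC2A12* averaged 3.45%, 2.39% and 1.26% in control adipose tissue and 1.02%, 0.270% and 0.113% in control muscle.

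Between the tissues of the controls, each of these 5 shares differed without overlap (exact permutation test over libraries, two-sided, 4 against 4, p = 0.0286 each, the smallest this design allows). Both tissues came from the same 4 animals, and the exact permutation test paired by animal gave p = 0.125 for each share and for the *SLC2A4* to *SLC2A1* ratio below, also the smallest it allows. The share of *SLC2A4* was higher in adipose tissue by 5.95 percentage points and that of *SLC2A5* lower by 11.6 points, a difference given as −11.6. The shares sum to 100% in each library and so are not independent of each other, and 7 measures were tested in all, 5 shares and 2 ratios. The log2 ratio of *SLC2A4* to *SLC2A1* was 5.15 ± 0.181 in adipose tissue and 8.22 ± 0.345 in muscle (SD, n = 4 each, exact permutation p = 0.0286), that is, 31.9 to 42.3 *SLC2A4* RPKM per *SLC2A1* RPKM in control adipose tissue and 209 to 353 in control muscle. In the case monkey this ratio was 20.5 in adipose tissue and 678 in muscle, outside the controls on the low side in adipose tissue and on the high side in muscle. With 1 animal against 4 the exact permutation test cannot give a p below 0.2, and it gave 0.2 in each tissue.

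No TBC1D gene dominated either tissue of the controls. The log2 ratio of *TBC1D1* to *TBC1D4* was 0.107, 0.197, −0.20 and −1.07 in adipose tissue of the controls, and −0.59, −0.45, −0.96 and 0.0879 in their muscle. The mean was −0.24 ± 0.578 in adipose tissue and −0.48 ± 0.433 in muscle (SD, n = 4 each), a difference of 0.237 that was smaller than either SD (exact permutation p = 0.514). *TBC1D4* exceeded *TBC1D1* in 3 of 4 control muscles, all but that of rhesus_950509, which was also the animal with the lowest ratio in adipose tissue. In the case monkey the log2 ratio was 0.266 in adipose tissue and 0.448 in muscle, the highest of the 5 animals in each tissue, and *TBC1D1* exceeded *TBC1D4* in both (exact permutation p = 0.4 and p = 0.2).

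**Figure D2:**
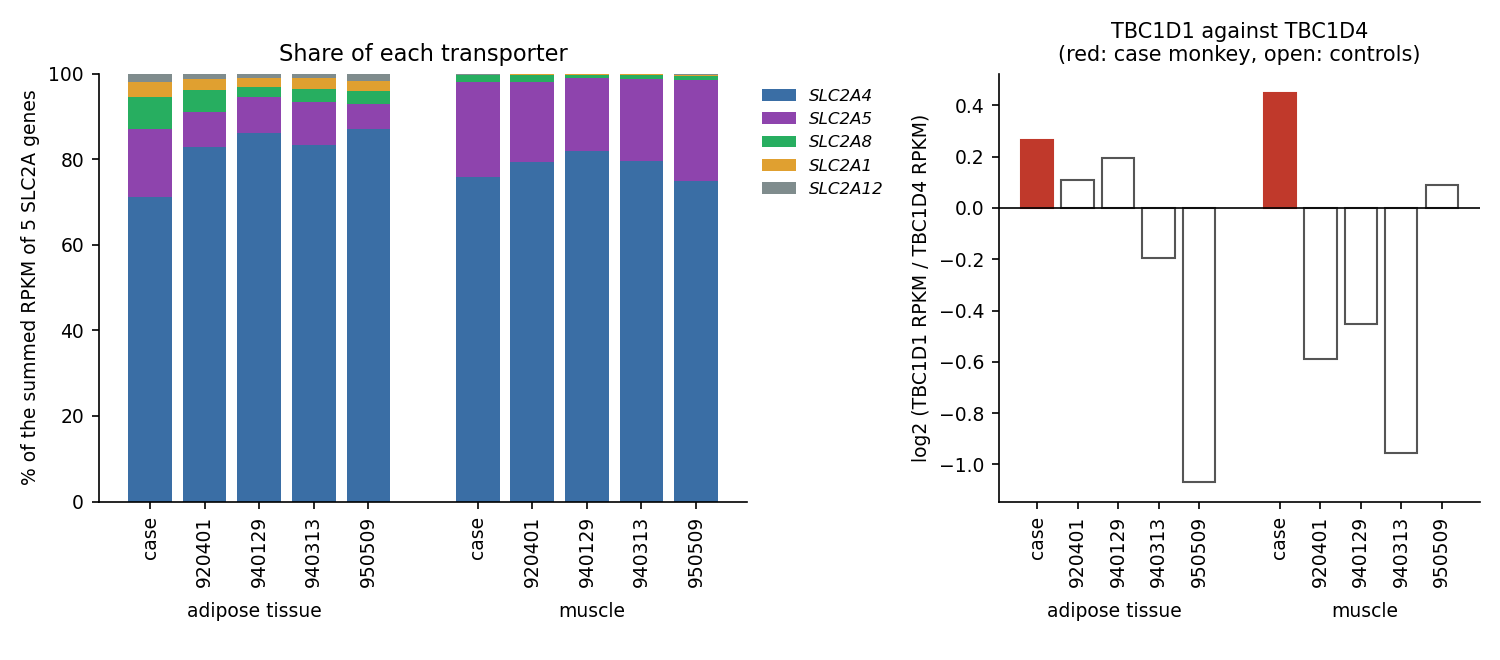
Left, the share of each of the 5 *SLC2A* genes in their summed RPKM, by library. Right, the log2 ratio of *TBC1D1* to *TBC1D4* RPKM, by library, with the case monkey in red and the controls as open bars. *SLC2A4* takes 71.1% of the sum in adipose tissue of the case monkey and 82.9% to 87.0% in that of the controls, and the ratio is above 0 in both tissues of the case monkey and of both signs among the controls.

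Levels of the same gene were then compared between adipose tissue and muscle of the 4 controls with edgeR's quasi-likelihood test, with p-values adjusted (Benjamini-Hochberg) over the 11173 genes that averaged 1 RPKM or more. Calls required an adjusted p below 0.05 together with a log2 difference of 1 or more in either direction. Of all genes tested, 29.6% were called higher and 22% lower in adipose tissue after TMM scaling, which sets libraries equal over the bulk of their genes. Libraries differed greatly in composition, with the 10 most abundant genes taking 5.97% to 8.09% of the gene counts in control adipose tissue and 30.3% to 32.9% in control muscle, and scaling to mapped totals, as RPKM does, gave 63% higher and 7.15% lower. The median log2 difference of all genes was 0.233 with TMM and 1.61 with mapped totals, so both are given below, with the difference relative to the median of all genes, on which the scalings are alike.

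*SLC2A5* and *SLC2A4* were lower in adipose tissue than in muscle. *SLC2A5* averaged 7.61 ± 4.09 RPKM in adipose tissue and 34.4 ± 2.40 RPKM in muscle (SD, n = 4 each), with a log2 difference of −3.55 (standard error 0.354, adjusted p = 7.04e-06) after TMM and −2.18 with mapped totals, called under both. *SLC2A4* averaged 80.0 ± 40.2 RPKM in adipose tissue and 139 ± 17.8 RPKM in muscle (SD, n = 4 each), with a log2 difference of −2.17 (standard error 0.341, adjusted p = 2.02e-04) after TMM. With mapped totals it was −0.80 (adjusted p = 0.0406), too small to be called, and the adipose library of rhesus_940129, at 139 RPKM, then reached into the muscle range. Relative to the median of all genes *SLC2A5* differed by −3.78 and *SLC2A4* by −2.40 after TMM, and by −3.78 and −2.41 with mapped totals. Each animal had more of both genes in muscle, by 1.06 to 2.91 times for *SLC2A4* and 2.30 to 7.69 times for *SLC2A5* in RPKM among the controls, and by 2.38 and 3.12 times in the case monkey.

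In RPKM *SLC2A1* was higher in adipose tissue, at 2.16 ± 0.767 RPKM against 0.467 ± 0.0508 RPKM in muscle (SD, n = 4 each), and the case monkey had 13.9 times as much *SLC2A1* RPKM in adipose tissue as in muscle, against 3.53 to 7.13 times in the controls. After TMM it differed by 0.836 on the log2 scale (standard error 0.374, adjusted p = 0.0699), which was not called, and with mapped totals by 2.21 (adjusted p = 2.0e-04), which was. The median of all genes differed by 0.233 after TMM and by 1.61 with mapped totals, so most of the difference with mapped totals was shared with the median gene. *SLC2A8*, *TBC1D1* and *TBC1D4* changed sign with the scaling and were called under neither scaling with all 4 controls. Their log2 differences were −0.68, −0.66 and −0.87 after TMM and 0.717, 0.727 and 0.505 with mapped totals, that is, −0.91, −0.90 and −1.10 relative to the median of all genes after TMM. After TMM *SLC2A8* was called without control rhesus_940129 (−1.09) and *TBC1D4* without control rhesus_950509 (−1.27). *SLC2A12* was below the mean of 1 RPKM over both tissues, with 53 to 123 reads in control adipose tissue and 2 to 36 in control muscle. In RPKM, 2 of the 6 genes tested were higher in every control adipose library than in every control muscle library, *SLC2A1* and *TBC1D1*, and 1 was lower, *SLC2A5*, where the same held for 65% and 8.47% of all genes tested. *SLC2A12*, which was not tested, was also higher in each adipose library. After TMM scaling *SLC2A1* alone of the 6 was higher in every control adipose library, *SLC2A4* and *SLC2A5* were lower, and *TBC1D1*, like *SLC2A12*, overlapped, against 28.9% higher and 26.7% lower among all genes tested.

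**Figure D3:**
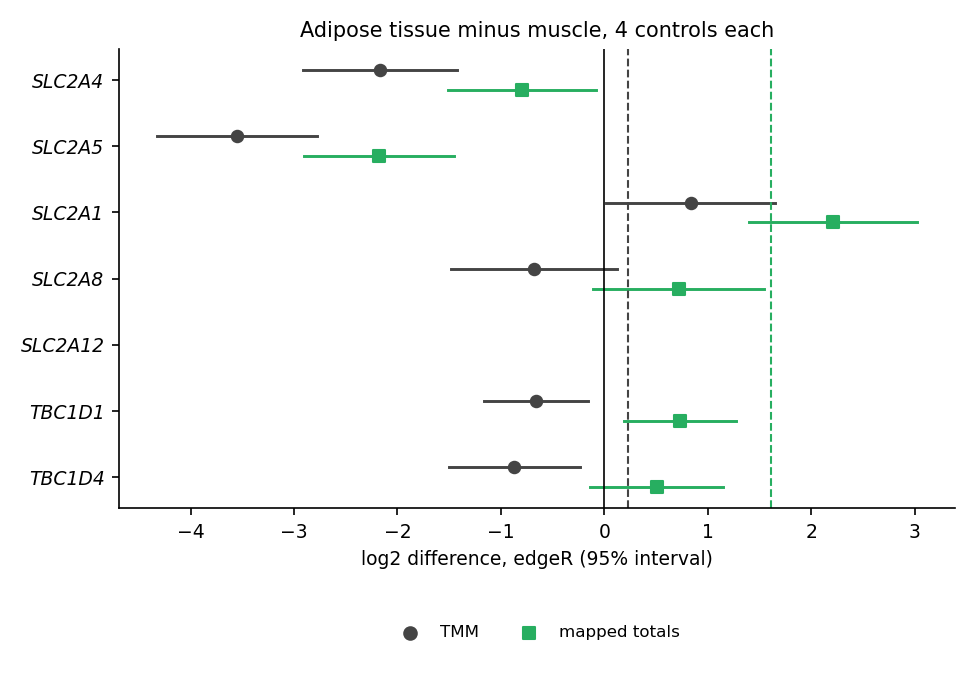
Log2 difference, adipose tissue minus muscle, of the 4 controls in each, with 95% intervals from edgeR after TMM scaling (grey circles) and scaling to mapped totals (green squares). Dashed lines mark the median of all genes under each scaling, 0.233 and 1.61. *SLC2A4* and *SLC2A5* lie below 0 under both, and *SLC2A8*, *TBC1D1* and *TBC1D4* change sides. *SLC2A12* was not tested.

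In muscle, the hyperinsulinemic monkey had less *SLC2A4*, *SLC2A5* and *SLC2A1* mRNA than any control and more *TBC1D1* and *TBC1D4*. None of these differences passed edgeR's test over the 8306 genes that averaged 1 RPKM or more, where 0% of genes were called at an adjusted p under 0.05 and 754 had an unadjusted p under 0.05. The fit takes the single animal to vary as the controls do. In bulk tissue fewer cells of a type and less RNA per cell cannot be told apart. For *TBC1D1* the log2 difference was 1.54 (standard error 0.303, unadjusted p = 5.5e-04, adjusted p = 0.342), 2.92 times the fitted control level. DESeq2 called it higher (log2 difference 1.55, adjusted p = 0.00709), among 88 genes called of which 28, or 0.337% of those tested, were higher. Across the 13 alternatives the log2 difference was 1.38 to 1.72 and the adjusted p 0.00709 to 0.490, under 0.05 with DESeq2 alone.

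*SLC2A4* in muscle differed by −0.93 on the log2 scale (standard error 0.275, 95% interval −1.54 to −0.31, unadjusted p = 0.00776, adjusted p = 0.482), or 52.7% of the fitted control level. It stayed between −1.0 and −0.74 across the 13 alternatives, with an adjusted p of 0.0632 to 0.711, the lowest with DESeq2. *SLC2A5* differed by −0.68 (standard error 0.262, unadjusted p = 0.0282, adjusted p = 0.498) and *TBC1D4* by 0.610 (standard error 0.333, adjusted p = 0.623). *SLC2A8* differed by −0.34 with a standard error of 0.579. *SLC2A1* was under the mean of 1 RPKM and, with no such filter, differed by −2.10 (standard error 0.996, adjusted p = 0.653). In RPKM, 2 of the 5 genes tested were below all controls and 2 were above, where 15.2% of all genes tested were below and 34.9% above, and *SLC2A1*, which was not tested, was below as well. After TMM scaling the same genes were below and above, against 23.8% and 24.3% of all genes tested.

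Markers of fiber type and of other cells differed between these muscles too. All 6 slow fiber genes found were lower in muscle of the case monkey than in any control, with a summed level of 117 RPKM in the case monkey and 498 to 4655 RPKM in the controls, none of them at 0. The summed fast fiber genes, at 44598 RPKM in the case monkey and 30880 to 47838 RPKM in the controls, were within the control range. Of these 5 genes 2 were above all controls. Of 8 smooth muscle and pericyte markers 5 were below all controls (summed, 60.1 RPKM in the case monkey and 99.9 to 143 RPKM in the controls), and of 7 macrophage markers 2 were (12.3 RPKM and 14.2 to 43.9 RPKM), with 1 of them at 0 in the case monkey. Of all genes tested in muscle, 15.2% were below and 34.9% above all controls in RPKM. The summed fibroblast markers were at 162 RPKM in the case monkey and 163 to 231 RPKM in the controls. The summed T and NK cell markers were near 0, at 0.298 RPKM (8 reads) in the case monkey and 0.345 to 1.67 RPKM (14 to 60 reads) in the controls. Of these 4 genes 3 were at 0 in the case monkey and 2 in all controls. Among the controls, rhesus_940129 had by far the most slow fiber mRNA, the 4655 RPKM above, and its *SLC2A4* (147 RPKM), *SLC2A1* (0.462 RPKM) and *TBC1D1* (4.27 RPKM) were within the range of the other controls, while its *SLC2A5* (30.8 RPKM) was the lowest of the 4. The part of fiber type and of other cells in the values of the case monkey was not tested.

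In adipose tissue *SLC2A4* of the case monkey was 43.2% of the control mean in RPKM, and none of the other 6 genes differed by as much on the log2 scale. The fitted log2 difference was −1.43 (standard error 0.656, with 95% bounds of −2.89 and 0.0352, unadjusted p = 0.0547, adjusted p = 1.0), at 37.2% of the fitted control level. Of the 11981 genes tested 0% were called by edgeR and 286 had an unadjusted p under 0.05, none of the 7 among them, and DESeq2 called 11 genes and none of the 7. *SLC2A4* rested on 3892 reads in the case monkey and 4466 to 11533 in the controls, so that counting error was small beside the spread of the controls. The value leaned on control rhesus_940129, the animal with the most *SLC2A4*, and was −0.99 without it. Without the adipose libraries of rhesus_920401 and rhesus_940313, which held the most muscle mRNA, it was −1.81.

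The log2 differences in adipose tissue were −0.57 for *SLC2A1*, −0.19 for *SLC2A5*, 0.0749 for *SLC2A8*, −0.42 for *SLC2A12*, 0.374 for *TBC1D1* and −0.17 for *TBC1D4*, with standard errors of 0.411 to 0.769. With mapped totals *SLC2A5* and *TBC1D4* changed sign, to 0.0310 and 0.0191. In RPKM, 1 of the 7 genes was below all controls, *SLC2A4*, and 1 was above, *TBC1D1*, where 7.8% of all genes tested were below and 27.9% above. After TMM scaling they were again these genes, against 14.3% and 15.7%. *SLC2A4* was also the only one of the 5 genes tested in both tissues that was below all controls in both, which held for 1.64% of the 7938 genes tested in both in RPKM and for 4.23% after TMM scaling. The 4 controls are the same animals in both tissues.

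**Figure D4:**
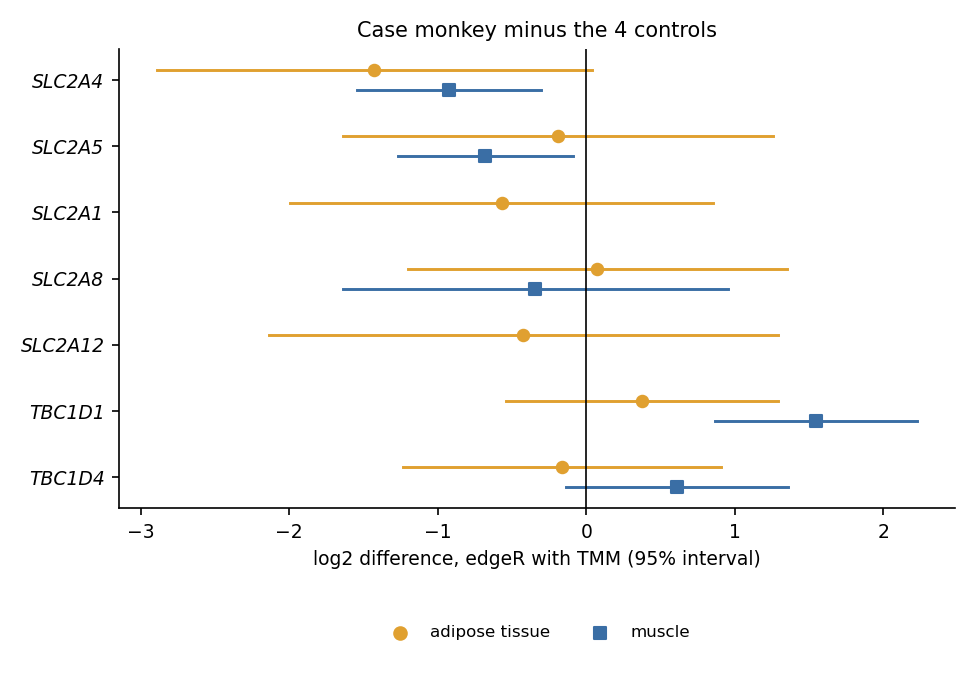
Log2 difference, the case monkey minus the 4 controls, with 95% intervals from edgeR after TMM scaling, in adipose tissue (circles) and in muscle (squares). In muscle the intervals of *SLC2A4* (−0.93), *SLC2A5* (−0.68) and *TBC1D1* (1.54) leave out 0, and no difference passed the test after adjustment over all genes. *SLC2A1* and *SLC2A12* were not tested in muscle.

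Several lists of markers of other cells summed to more in adipose tissue of the case monkey than in any control. Of all genes tested in adipose tissue, 27.9% were above all controls in RPKM. Of 7 macrophage markers found, 6 were above all controls in the case monkey, with a summed level of 700 RPKM in the case monkey and 171 to 533 RPKM in the controls. Of 6 fibroblast markers 4 were above all controls (2763 RPKM in the case monkey and 1405 to 2326 RPKM in the controls). The summed T and NK cell markers were at 12.7 RPKM in the case monkey and 1.62 to 7.19 RPKM in the controls. Of these 4 genes 2 were above all controls and 1 was at 0 in the case monkey. Summed endothelial markers (260 RPKM in the case monkey, 160 to 238 RPKM in the controls) were also above all controls. Only 2 of these 8 genes were above all controls, and 1 was below. The sums of peripheral nerve (7.63 RPKM and 3.11 to 5.45 RPKM) and erythroid cells (26.9 RPKM and 3.50 to 23.5 RPKM) were above them too. Among single genes, 3 of 5 nerve and 1 of 4 erythroid markers were above all controls. The neutrophil and the smooth muscle and pericyte sums were within the controls. The summed adipocyte markers, at 4093 RPKM in the case monkey and 2345 to 5899 RPKM in the controls, were within the control range for all 6 genes, with none at 0. The part of these cells in the lower *SLC2A4* was not tested.

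Whether the case differed from the controls by more in one tissue than in the other was tested with an interaction term over 7938 genes, of which 0% were called by edgeR, 434 had an unadjusted p under 0.05 and DESeq2 called 16. *TBC1D1* had the largest difference of effects among the 5 genes tested, with the effect in adipose tissue lower than that in muscle by a log2 difference of −1.13 (standard error 0.504, unadjusted p = 0.0451, adjusted p = 0.902). For *SLC2A4* it was −0.42 with a 95% interval of −1.82 to 0.980, so that neither equal nor clearly unequal effects could be read from these 10 libraries. The intervals of *SLC2A5* (0.574), *SLC2A8* (0.492) and *TBC1D4* (−0.76) also held 0.

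The machinery around GLUT4 was described with gene lists for the other glucose transporters, the storage vesicle, its fusion, its GTPases and motors, the upstream kinases, the hexokinases that trap glucose inside the cell and the transcriptional regulators of *SLC2A4*. Of 60 list genes found besides the members, 47 passed the filter in the tissue comparison, and after TMM 13 were called higher and 10 lower in adipose tissue. These are 27.7% and 21.3% of the 47, close to the 29.6% and 22% of all genes tested, so the counts of the lists are given as a description only. In RPKM all 13 were also higher in adipose tissue, and 8 of the 10 also lower. The first count could hardly differ, since scaling to mapped totals, as RPKM does, raises adipose tissue relative to muscle for all genes. *AKT1* and *ASPSCR1*, which encodes the GLUT4 tether TUG, were higher in RPKM.

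Among the vesicle cargo and sorting genes 5 of 11 were called higher and 2 lower in adipose tissue. *CLTCL1*, the clathrin heavy chain CHC22 that sorts GLUT4 in human muscle, was at 0.990 ± 0.436 RPKM in adipose tissue and 12.3 ± 3.47 RPKM in muscle (SD, n = 4 each), with a log2 difference of −4.99 after TMM. *CLTC*, the ubiquitous clathrin heavy chain, ran the other way, at 35.6 ± 9.90 RPKM in adipose tissue and 4.53 ± 1.04 RPKM in muscle (log2 difference 1.59). The controls thus had more *CLTC* than *CLTCL1* in every adipose library and less in every muscle library. The SNARE gene *STX6* (log2 difference 2.77) and the retromer gene *VPS35* (1.42) were also called higher in adipose tissue. Of 7 fusion genes *SYT7* (1.04) was called higher and *EXOC3* of the exocyst (−1.57) lower, and of 8 genes for GTPases and motors only the myosin gene *MYO5A* (3.30) was called.

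Of 7 kinase genes upstream of the TBC1D proteins, 2 were called higher and 2 lower in adipose tissue. The catalytic AMPK genes went opposite ways: *PRKAA2* averaged 0.732 ± 0.600 RPKM in adipose tissue and 4.87 ± 1.63 RPKM in muscle (log2 difference −4.12), and *PRKAA1* 5.24 ± 2.06 RPKM in adipose tissue and 0.774 ± 0.287 RPKM in muscle (log2 difference 1.38, SD, n = 4 each). *AKT1* was called lower after TMM (−1.28) though it was at 32.0 RPKM in adipose tissue and 29.6 RPKM in muscle. *AKT2*, the AKT gene of insulin-stimulated glucose uptake, was the most abundant of the 7 in both tissues, at 106 ± 35.2 RPKM in control adipose tissue and 79.5 ± 9.96 RPKM in control muscle (SD, n = 4 each).

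Of 5 hexokinase genes *HK1* led in both tissues, at 46.8 RPKM in control adipose tissue and 49.0 RPKM in control muscle, and was called lower in adipose tissue after TMM (log2 difference −1.45). *HK2*, the hexokinase regulated by insulin in muscle, was at 3.23 RPKM in control adipose tissue and 1.02 RPKM in control muscle, and in muscle of the case monkey it was at 0.162 RPKM, against 0.819 to 1.26 RPKM in the controls, too low in muscle to be tested between animals. *HK3* was called higher in adipose tissue (2.97).

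Of 8 regulators of *SLC2A4* transcription 1, *MLXIPL* (log2 difference 1.94), was called higher and 4 lower in adipose tissue. The 4 were *MEF2C* (−3.32), *MEF2D* (−3.12), *ESRRA* (−2.89) and *SLC2A4RG* (−2.12), the last encoding the GLUT4 enhancer factor GEF, and all 4 were also lower in RPKM. *SLC2A10* (GLUT10) was the one other *SLC2A* gene above the filter in the tissue comparison, at 3.72 ± 1.30 RPKM in adipose tissue and 0.382 ± 0.269 RPKM in muscle (SD, n = 4 each), and was called higher (1.90), beside 2.97 ± 0.902 RPKM of *SLC2A8* in the same adipose libraries. *SLC2A2* and *SLC2A7* were at or near 0 in all libraries, and no sodium-glucose cotransporter gene of the 6 found exceeded 0.317 RPKM. *SLC2A14*, a close copy of *SLC2A3*, was at 0.0356 to 0.949 RPKM in adipose tissue. Only uniquely mapped reads were kept, so reads that match both copies would be missing from this value.

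In the comparisons of the hyperinsulinemic monkey none of the list genes was called in either tissue, of 34 tested in muscle and 45 in adipose tissue. The genes given here for muscle were picked for a small p-value within their list. *MEF2A*, a myocyte enhancer factor, was at 9.55 RPKM in the case monkey and 2.74 to 4.07 RPKM in the controls (log2 difference 1.22, standard error 0.283, adjusted p = 0.384), and *KLF15* at 1.75 RPKM in the case monkey and 3.07 to 5.33 RPKM in the controls (−1.44, standard error 0.434, adjusted p = 0.482). *VPS35* differed by 0.872 and *RAB14* by 0.620, and *MEF2C* was at 36.5 RPKM in the case monkey and 12.9 to 22.5 RPKM in the controls. The most abundant kinase genes *AKT1* and *AKT2* differed by −0.36 and −0.17.

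In adipose tissue none of the 45 had an unadjusted p under 0.05. Among the smallest were those of *PPARGC1A* (log2 difference −2.20, adjusted p = 1.0) and *MLXIPL* (log2 difference −1.35, adjusted p = 1.0), the last encoding the glucose-responsive factor ChREBP. *MLXIPL* was at 6.91 RPKM in the case monkey and 7.61, 23.1, 13.8 and 15.97 RPKM in the controls, so that, as for *SLC2A4*, the order from low to high was the case monkey, rhesus_920401, rhesus_940313, rhesus_950509 and rhesus_940129. *KLF15* had the same order, at 6.08 RPKM in the case monkey and 7.55, 16.7, 8.77 and 12.5 RPKM in the controls. The other regulators found did not have this order. *PPARGC1A* was highest in rhesus_940313 (4.30 RPKM), and *MEF2A* (4.95 RPKM) and *MEF2C* (2.60 RPKM) were lowest in rhesus_940129. *MEF2D* was highest in the case monkey (9.35 RPKM), whose *ESRRA* (10.6 RPKM) and *SLC2A4RG* (35.5 RPKM) lay within the controls. The share of all genes with this order was not counted. *TXNIP*, an arrestin that binds glucose transporters, was at 536 RPKM in the case monkey, within the controls at 288 to 811 RPKM.

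Among the 5 genes most like *SLC2A4* over the 10 libraries, by Pearson's r of log2(RPKM + 1) over the 8510 named genes that averaged 1 RPKM or more, were *SLC25A3* (r = 0.934), *NDUFA9* (0.917), *NARF* (0.916) and *TUFM* (0.903). They were chosen as the highest of 8510, the points share libraries and scaling, and 5 of the points are of each tissue. After the mean of each tissue was taken off, over 5952 genes, the 5 highest included *SLC25A3* (0.946), *NDUFA9* (0.945), *RPS3* (0.925) and *SAMM50* (0.919). *SLC25A3* encodes the mitochondrial phosphate carrier and *NDUFA9* a subunit of complex I. *SLC25A3* was at 89.6 RPKM in adipose tissue of the case monkey, against 100.4, 162, 118 and 100.7 RPKM in the controls, so that, as for *SLC2A4*, the case monkey was the lowest and rhesus_940129 the highest. Because *SLC25A3* was chosen by its correlation with *SLC2A4* in these same libraries, this likeness is no separate result.

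**Figure D5:**
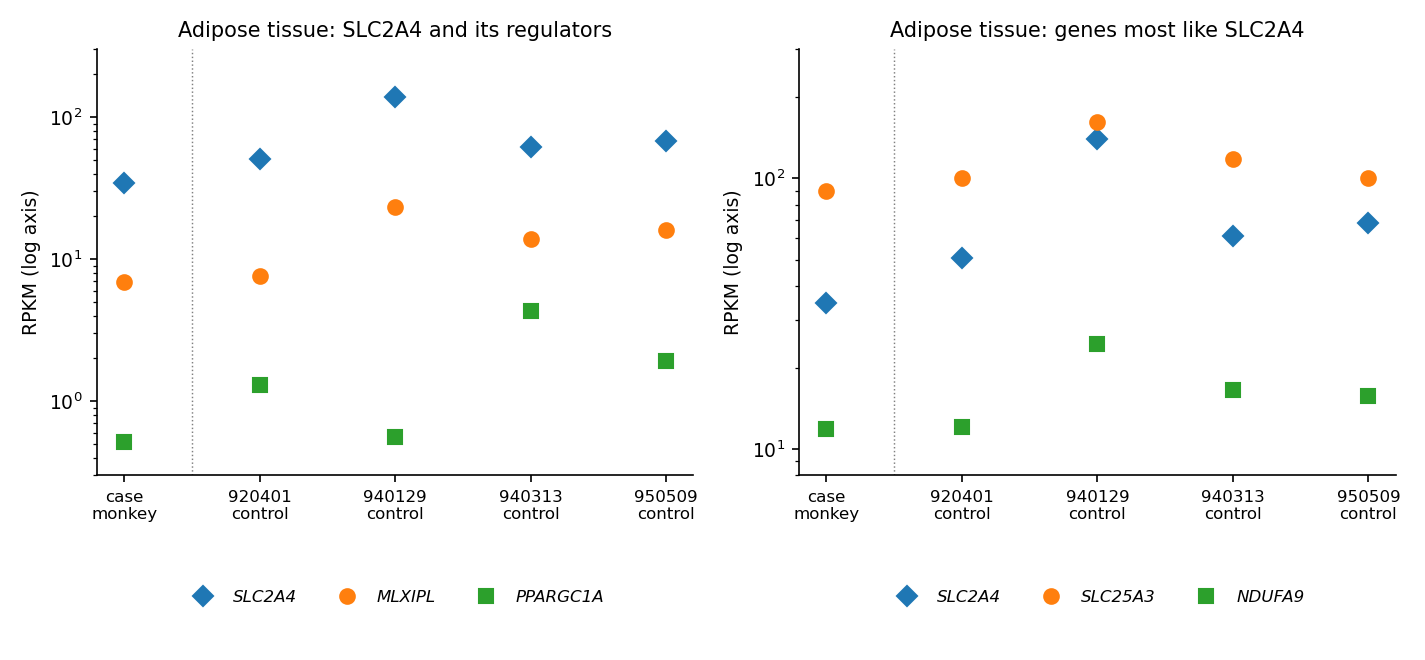
RPKM (log axes) in the 5 adipose libraries, the case monkey first and the 4 controls after it. Left, *SLC2A4* with *MLXIPL* and *PPARGC1A*. Right, *SLC2A4* with 2 genes that were among the most like it both with and without the tissue means. *SLC2A4*, *MLXIPL* and *SLC25A3* are each lowest in the case monkey (34.5, 6.91 and 89.6 RPKM) and highest in control rhesus_940129 (139, 23.1 and 162 RPKM). *PPARGC1A* is highest in control rhesus_940313 (4.30 RPKM). Of the regulators not drawn, *KLF15* has the order of *SLC2A4* and the others do not. The genes on the right were chosen by their correlation with *SLC2A4* in these libraries, so their likeness to it is no separate result.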

How the data were processed

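Poly(A) RNA of RIN above 7.5 was sequenced in strand-specific libraries. The authors mapped the reads with TopHat (1.2.0 in the submitters' processing notes, another release in the paper's methods) and kept uniquely mapped reads. The sources used here name no counting tool, build or annotation. The deposited counts are whole reads per gene, and the deposited RPKM values equalled, in all 28595 genes of each library, these counts divided by the longest transcript and the mapped reads. Symbols matched 15556 genes (54.4%). Gene starts were turned to counting from 1.

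Counts were tested with edgeR 4.0.16 (quasi-likelihood, TMM) over genes that averaged 1 RPKM or more, two-sided, with Benjamini-Hochberg adjustment, and with DESeq2 1.42.0 and limma 3.58.1 as alternatives (R 4.3.3). Ratios were compared by exact permutation of libraries (Python 3.11.15). The script was tested on simulated data. Both tissues came from the same animals, so the numbers pair the libraries. The deviations of an animal's 2 libraries from the control means had correlations of 0.137, −0.21, 0.0875 and 0.151 over 7938 genes. The highest correlation with another animal was 0.0429, 0.248, 0.208 and 0.155, which was larger in all controls but rhesus_920401. Alternatives were other scalings, filters, pseudocounts of 1 and 0.1 for limma, leaving out each control, all 10 libraries in one fit, and the animal as a block. Nothing states that libraries were remade, so p-values measure the spread between animals together with technical error.

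The members, lists and alternatives were chosen with earlier results of these data known. Named are all members, up to 4 called genes of each pathway list (or, where none was called, 2 with the smallest p) and the 5 genes most correlated with *SLC2A4*. *HK2*, *ASPSCR1*, *SLC2A2*, *SLC2A7* and *SLC2A14* were named after their values were seen. Some genes that this rule names are not reported here.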

Additional observations from a re-analysis of the deposited data

Results flagged for a closer look

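In the groups of 4 controls, 3 of 28 sets of values (the 7 genes and the 7 shares and ratios in each tissue) held a library far from the others by Dixon's ratio, which chance gives in about 1 of 20 groups. *SLC2A4* in muscle was at 112 RPKM in control rhesus_950509, against 147 to 148 RPKM in the other 3. *SLC2A5* in muscle was at 30.8 RPKM in control rhesus_940129, against 35.3 to 36.0 RPKM in the others, and this animal also had the most slow fiber mRNA, 4655 RPKM against 498 to 739 RPKM. The share of *SLC2A8* in the summed transporters of adipose tissue was 5.34% in control rhesus_920401, against 2.54% to 2.97% in the others, an adipose library with more muscle mRNA than most and with the lowest *SLC2A4* of the controls, 50.9 RPKM. The part of these features in the 3 values was not tested.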

How the results depend on the processing

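Of the differences of single genes, 279 values under the alternatives kept direction and side of the threshold, 6 newly passed, 3 no longer passed and 20 changed sign. None of the 20 was of a called difference. In adipose tissue of the case monkey against the controls *SLC2A5* became 0.0310 with mapped totals and 0.136 and 0.166 with limma at pseudocounts of 1 and 0.1 (−0.38 to 0.256 leaving out a control), *TBC1D4* 0.0191, 0.0655 and 0.0802 (−0.32 to 0.0608), and *SLC2A8* −0.0661 without the adipose libraries of rhesus_920401 and rhesus_940313 (−0.0192 to 0.303). Between tissues, in the same 3 settings, *SLC2A8* became 0.717, 0.508 and 0.713, *TBC1D1* 0.727, 0.596 and 0.710, and *TBC1D4* 0.505, 0.418 and 0.481, since these settings do not correct for composition. The 3 settings also ended the call of *SLC2A4* and made that of *SLC2A1*.

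Of the members in muscle of the case monkey, DESeq2 called 1, *TBC1D1*, and edgeR none. The share of *SLC2A4* differed between tissues by 3.83 points over all 5 animals (p = 0.262), 7.70 without the adipose libraries of rhesus_920401 and rhesus_940313 (p = 0.0667), 5.95 with the replicate block by animal (p = 0.125) and 3.88 to 6.70 leaving out a control (p = 0.1 each, exact permutation tests). The log2 ratio of *SLC2A4* to *SLC2A1* differed by −2.93 without those libraries, −3.06 with the replicate block and −3.24 to −2.95 leaving out a control, at the same p-values, and by −3.46 over all 5 animals (exact permutation p = 0.00794). Of these designs, those without libraries, with the block or without a control cannot give a lower p. With the replicate block each of the 5 shares had an exact permutation p of 0.125, so it ended the calls of all 5 between tissues. It changed no call of a member gene's log2 difference, with 5712 genes called between tissues and 5767 without it.

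Genes called by DESeq2 were 88 in muscle, 11 in adipose tissue and 16 for the difference of effects, against 0 by edgeR each time. In muscle 10 genes were called with no filter, 14 without control rhesus_940313, 3 with mapped totals and 1 with median-of-ratios scaling, robust dispersion or limma. In adipose tissue edgeR called 6 without control rhesus_920401 and 33 without the libraries of rhesus_920401 and rhesus_940313. Between tissues, a mean of at least 5 RPKM left 3325 called. Depth limited *SLC2A1* and *SLC2A12* in muscle, with at most 57 reads.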
